A study of Mus musculus with 17 samples.

Results

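The 74 genes whose symbol is Mrpl or Mrps followed by a number were described, out of 12393 genes measured. Apart from Mrps36, they encode proteins of the mitochondrial ribosome. Of these symbols, 47 start with Mrpl and 27 with Mrps, and all 74 were tested because no filter on level was applied. Among the probe sets listed with a member alone, the one that was brightest on average stood for the gene. In all, 127 probe sets named a single member, and 33 members had more than 1 of them. A further 3 probe sets, which list Mrpl30, Mrps34 or Mrpl53 together with another gene, were left out. Mrps34 has another probe set and is among the 74, and Mrpl30 and Mrpl53 are not.

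The series compared tibialis anterior, a shin muscle made mostly of fast fibres, between normal wild-type mice (6 arrays), mdx mice (6 arrays) and fiona mice (5 arrays). The mdx line carries a mutation in the dystrophin gene and is a model of Duchenne muscular dystrophy. The fiona line is a transgenic line on the mdx background that makes utrophin, a relative of dystrophin, at a high level, so fiona and mdx animals share the dystrophin mutation. Per the labels all animals were males of 56 days, the muscles of both legs were pooled, and each array is a biological replicate. The labels do not name the promoter that drives the transgene. The table holds log2 values, and a log2 difference of 1 is a 2-fold change.

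Mitochondria keep a small genome of their own, and its messages for core subunits of the respiratory chain and the ATP synthase are read by a dedicated ribosome inside the organelle. The RNA of that ribosome comes from mitochondrial DNA, while its proteins are all encoded in the nucleus, made in the cytosol and imported. Many of these proteins descend from bacterial ribosomal proteins, and others were added during the evolution of mitochondria. Skeletal muscle relies on the ribosome for its oxidative capacity, and inherited defects of several members cause cardiomyopathy or other disease of tissues with a high energy demand.

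Promoter windows were available for 65 members (RefSeq, GRCm38.p6, from 250 bases before to 50 after the start of the gene). The windows were searched on both strands for 3 motifs that are known from promoters of nuclear genes for mitochondrial proteins, and a gene was counted if any of its windows held a match. The ETS motif CCGGAAG, bound by GABPA, was in 24 of the 65 members (36.9%), against 16.2% of 9822 other genes on the array and 22.4% of the other genes that were at least as bright as the dimmest member. The YY1 motif AAGATGGC was in 11 members (16.9%), against 4.31% and 6.51%. The NRF1 motif, GCGCA and GCGC with any base between them, was in 12 members (18.5%), against 9.30% and 13.96%. Of the 65, 40 (61.5%) held at least 1 of the 3 motifs, against 26.2% and 37.2%, and 0 held all 3. No test was made on these shares, and a match is a run of letters and not a measured binding site. The windows of 3 members described in the comparisons are shown first, with motif matches in capitals, then a pair of members in which different motifs stand in 1 window.
Mrpl28 (chr17:26123253-26123552, plus strand): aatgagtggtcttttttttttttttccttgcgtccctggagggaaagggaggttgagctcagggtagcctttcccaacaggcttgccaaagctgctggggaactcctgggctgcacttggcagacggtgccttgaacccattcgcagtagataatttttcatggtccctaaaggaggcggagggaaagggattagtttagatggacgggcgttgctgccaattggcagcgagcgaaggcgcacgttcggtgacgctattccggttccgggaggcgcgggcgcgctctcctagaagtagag
Mrpl52 (chr14:54426659-54426958, plus strand): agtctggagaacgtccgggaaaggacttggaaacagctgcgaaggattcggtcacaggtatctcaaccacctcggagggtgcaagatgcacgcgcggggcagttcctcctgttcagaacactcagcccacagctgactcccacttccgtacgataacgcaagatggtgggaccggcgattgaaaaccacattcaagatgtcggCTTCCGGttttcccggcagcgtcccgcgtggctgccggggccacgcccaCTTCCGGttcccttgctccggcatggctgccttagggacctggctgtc
Mrps36 (chr13:100744610-100744909, minus strand): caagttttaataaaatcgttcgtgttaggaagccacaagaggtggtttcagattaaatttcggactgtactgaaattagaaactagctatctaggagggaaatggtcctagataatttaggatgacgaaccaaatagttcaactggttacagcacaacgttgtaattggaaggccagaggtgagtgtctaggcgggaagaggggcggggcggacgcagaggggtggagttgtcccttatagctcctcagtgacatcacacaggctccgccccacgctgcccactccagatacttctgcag
Mrpl32 (chr13:14612988-14613287, minus strand): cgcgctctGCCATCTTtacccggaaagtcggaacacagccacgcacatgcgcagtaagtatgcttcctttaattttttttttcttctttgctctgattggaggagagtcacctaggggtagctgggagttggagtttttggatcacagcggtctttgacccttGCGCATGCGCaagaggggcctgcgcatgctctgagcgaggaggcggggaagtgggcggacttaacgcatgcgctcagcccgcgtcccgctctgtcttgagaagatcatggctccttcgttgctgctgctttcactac
Mrps18a (chr17:46110754-46111053, plus strand): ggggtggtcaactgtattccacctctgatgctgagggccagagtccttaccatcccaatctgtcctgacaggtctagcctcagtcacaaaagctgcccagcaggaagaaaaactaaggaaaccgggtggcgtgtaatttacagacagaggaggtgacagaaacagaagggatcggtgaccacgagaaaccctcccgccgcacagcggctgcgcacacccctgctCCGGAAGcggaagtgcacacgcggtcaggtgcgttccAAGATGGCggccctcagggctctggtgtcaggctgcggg
The windows of Mrpl28 and Mrps36 held 0 of the 3 motifs. The window of Mrpl52 held the ETS motif at 2 positions, both read on the opposite strand. That of Mrpl32 held the YY1 motif on the opposite strand and the NRF1 motif, and that of Mrps18a held the ETS and YY1 motifs, the latter after the start of the gene. The window of Mrpl13, which is also described in the comparisons, was not in the table.

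Several features of the arrays bear on all values. On one Dmd probe set the 6 normal arrays lay between 6.33 and 6.88, and the mdx and fiona arrays lay between 3.23 and 3.53. On one Utrn probe set fiona arrays 1 to 5 measured 4.94, 3.04, 3.78, 7.28 and 2.48, and all 5 lay above all others (2.04 to 2.17). On another Utrn probe set they measured 6.39, 2.68, 3.54, 7.02 and 3.02, and fiona array 2 was within the range of normal and mdx arrays (2.57 to 2.77). Fiona arrays 1 and 4 were the highest on both of these probe sets. On the third and brightest Utrn probe set the fiona arrays (5.21 to 7.36) overlapped normal and mdx arrays (6.45 to 7.59), and fiona array 5 was the lowest. The fast-fibre markers, which define this muscle, had array medians of 14.4 to 14.8 in all groups. With the group means taken out, the 17 arrays formed 2 sets along a component that held 42.6% of the remaining variance and was computed without the members. The first set comprised arrays 3, 4 and 5 of both the normal and the mdx group with fiona arrays 1 and 4, and set 2 the other 9 arrays. Against the labels, 7 arrays (normal 6, mdx 1 and 4, fiona 1, 2, 3 and 5) had a female pattern of Xist and the Y-linked gene Eif2s3y. Array mdx 6 had both transcripts (Xist 5.40, Eif2s3y 8.11) and was counted as male, while Xist was at most 2.47 on the other male-pattern arrays. In the fiona to mdx comparison 46.9% of the 8057 genes dimmer than the dimmest member were called higher, so shares among the 4336 genes at least as bright are given beside those over all genes.

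The members were well expressed in muscle of all 3 groups. Their mean levels ranged from 5.76 to 11.9 with a median of 8.42, against a median of 4.07 over all genes. Every member lay above the level of 15 bacterial control probe sets (2.64 to 2.99) on all 17 arrays. The brightest were Mrpl51, with a mean of 11.90, Mrpl42 with 11.82, Mrpl18 with 10.21 and Mrpl23 with 10.04. The dimmest were Mrps25 with 5.76, Mrps5 with 5.98, Mrps11 with 6.34 and Mrpl14 with 6.48. These brightnesses depend on the probes and do not rank the genes by transcript number. The median over the members was 8.39 ± 0.18 (SD, n = 6) on normal, 8.42 ± 0.22 (n = 6) on mdx and 8.44 ± 0.25 (n = 5) on fiona arrays, so the group means differed by less than the spread inside each group. The highest array of each group was normal 6 at 8.72, mdx 1 at 8.77 and fiona 2 at 8.85, and all 3 belong to set 2 and have the female pattern. The same 3 arrays had the highest median of their group over all genes at least as bright as the dimmest member (7.93, 8.06 and 7.90). Their rank is thus not particular to the members. For the members, the next highest array of each group was at 8.43 (normal 5), 8.51 (mdx 3) and 8.45 (fiona 1). For the genes at least as bright, it was at 7.83 (normal 3), 7.88 (mdx 3) and 7.81 (fiona 1), so the 3 arrays stood out by more in the members.

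**Figure D1:**
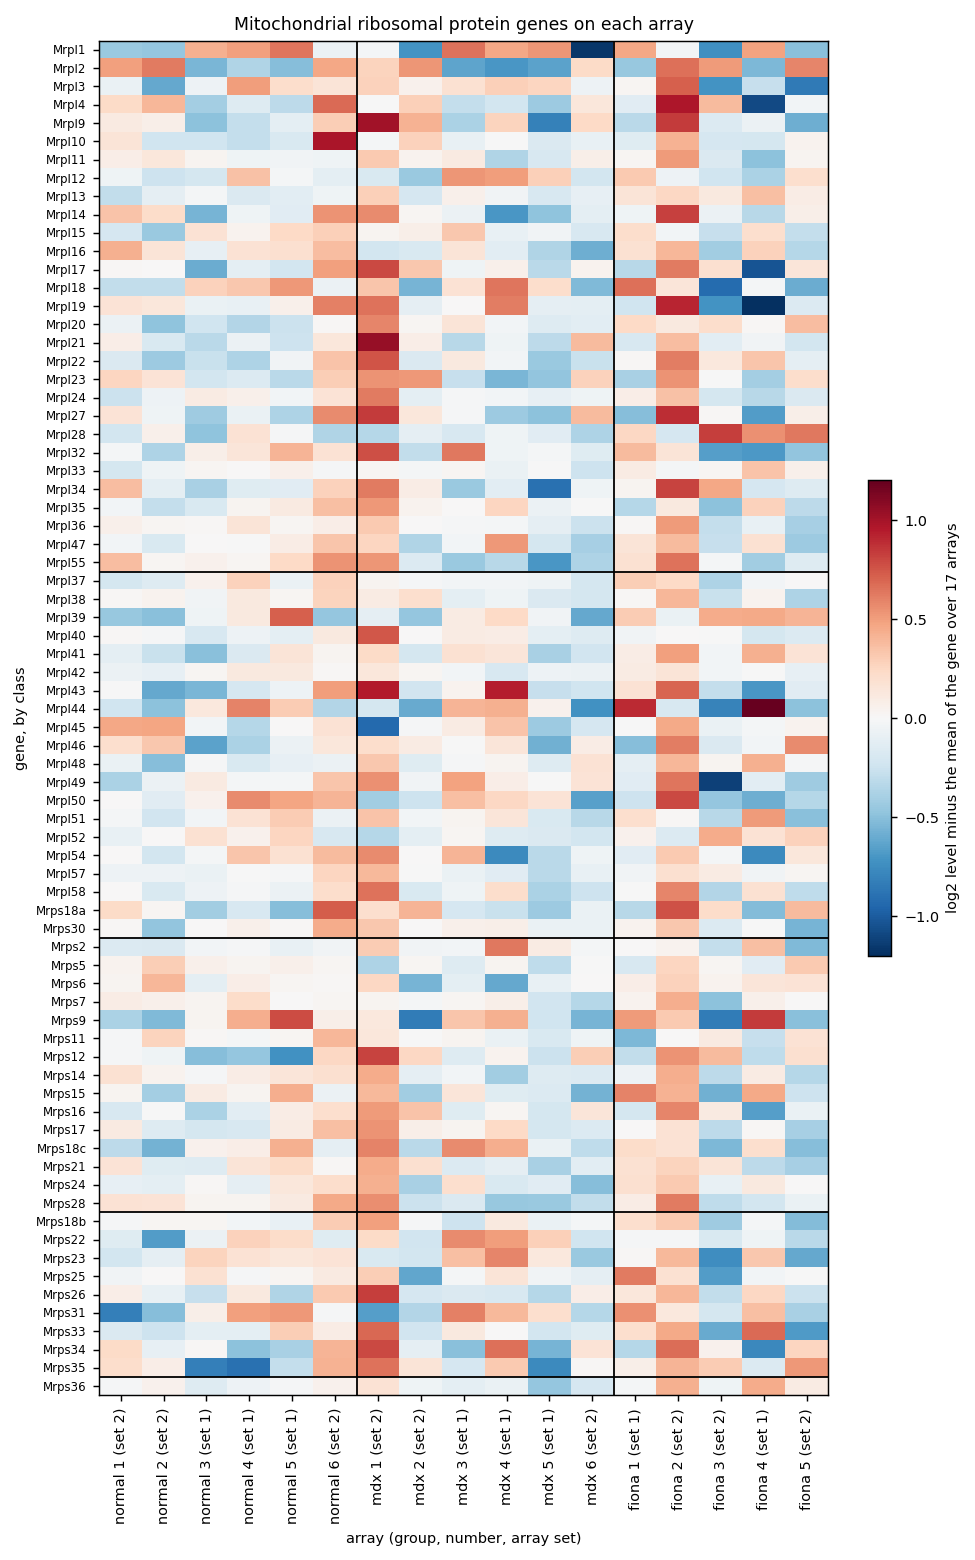
Each row is a member, grouped by class from top to bottom (large subunit with a bacterial counterpart, large subunit of mitochondria alone, small subunit with a bacterial counterpart, small subunit of mitochondria alone, Mrps36), each column is an array, and colour gives its log2 level minus the mean of that gene over 17 arrays. No block of colour follows the 3 groups, while columns such as mdx 1 and fiona 2 are high for many members, and a few rows such as Mrpl2 follow the array sets.

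In dystrophic muscle no transcript of the mitochondrial ribosome was called different from its normal level in the fit over all arrays. The question of this comparison is what loss of dystrophin changes in muscle. Of the 74 members, 0 were called higher and 0 lower in mdx than in normal muscle (limma, adjusted p under 0.05), where 3.22% of all genes were called higher and 1.44% lower, and 5.49% and 3.21% of the genes at least as bright. Without adjustment, at p under 0.05, 1 member was higher (8.86% of all genes) and 3 were lower (8.48%). The arrays of both groups overlapped for all 74 members, whereas 2.54% of all genes were higher and 1.98% lower with no overlap. The median difference over the members was -0.02, beside -0.04 over all genes, with 35 members above and 39 below 0. The 95% interval of the difference stayed inside a 2-fold change for all 74 members and inside a 1.5-fold change for 45 of them. In whole muscle, a change in the share of a cell type and a change in RNA per cell cannot be told apart.

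The classes of the ribosome are given in turn, and no test compared them. Among the 29 proteins of the large subunit with a bacterial counterpart, differences ran from -0.46 (Mrpl55) to 0.30 (Mrpl20) with a median of 0.00. The 20 proteins of the large subunit classed as of mitochondria alone ran from -0.32 (Mrpl50) to 0.35 (Mrpl43), with a median of -0.04. Mrps30 and Mrps18a are counted among them in spite of their names. The 15 small-subunit proteins with a bacterial counterpart ran from -0.34 (Mrps28) to 0.42 (Mrps12, which lies at the decoding centre), with a median of -0.14, and 10 of the 15 were below 0. The 9 small-subunit proteins classed as of mitochondria alone ran from -0.10 (Mrps25) to 0.27 (Mrps22) with a median of 0.04, and 7 of the 9 were above 0. Mrps18b is counted among these, while Mrps18c, of the same name series, is classed with the proteins that have a bacterial counterpart. Mrps36 carries a ribosomal name but is now known as a component of the alpha-ketoglutarate dehydrogenase complex of the citric acid cycle, and its difference was -0.10.

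The 4 members with the smallest p did not pass the adjusted threshold. Mrpl16, a large-subunit protein near the binding sites of the tRNAs, had a lowest, median and highest level of 8.87, 9.15 and 9.39 on normal arrays and of 8.39, 8.77 and 9.13 on mdx arrays. Its mdx arrays were low except array 3, which reached into the normal range, and the difference was -0.42 ± 0.15 (SE; limma, adjusted p = 0.153). Mrpl20, another large-subunit protein with a bacterial counterpart, had 8.49, 8.73 and 8.98 on normal arrays and 8.81, 8.96 and 9.56 on mdx arrays. The ranges overlapped, mdx array 1 was the highest, and the difference was 0.30 ± 0.12 (SE; limma, adjusted p = 0.181). Mrpl55 had 7.08, 7.20 and 7.60 on normal arrays and 6.35, 6.70 and 7.59 on mdx arrays. Here 5 of 6 mdx arrays were below all normal arrays and mdx array 1 was near the normal maximum, with a difference of -0.46 ± 0.20 (SE; limma, adjusted p = 0.245). Mrps5, a small-subunit protein whose bacterial relative takes part in the accuracy of decoding, had 6.00, 6.03 and 6.27 on normal arrays and 5.61, 5.90 and 6.01 on mdx arrays. The groups met between 6.00 and 6.01, and the difference was -0.21 ± 0.10 (SE; limma, adjusted p = 0.275).

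A few members were called in other settings of this comparison. Mrps12, at 0.42 ± 0.21 (SE; limma, adjusted p = 0.327) over all arrays, was called higher with the array set as a block (0.42; adjusted p = 0.0143) and in array set 1 alone (0.44; adjusted p = 0.0414). Mrpl2 was called lower with the block (-0.18; limma, adjusted p = 0.0466), Mrps28 in array set 1 alone (-0.42; adjusted p = 0.0470) and Mrpl16 with quantile normalization (-0.46; adjusted p = 0.0431). Over all 12393 genes, calls were 399 higher and 179 lower in the fit over all arrays, 710 and 528 with the block and 689 and 1876 in array set 1 alone.

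**Figure D2:**
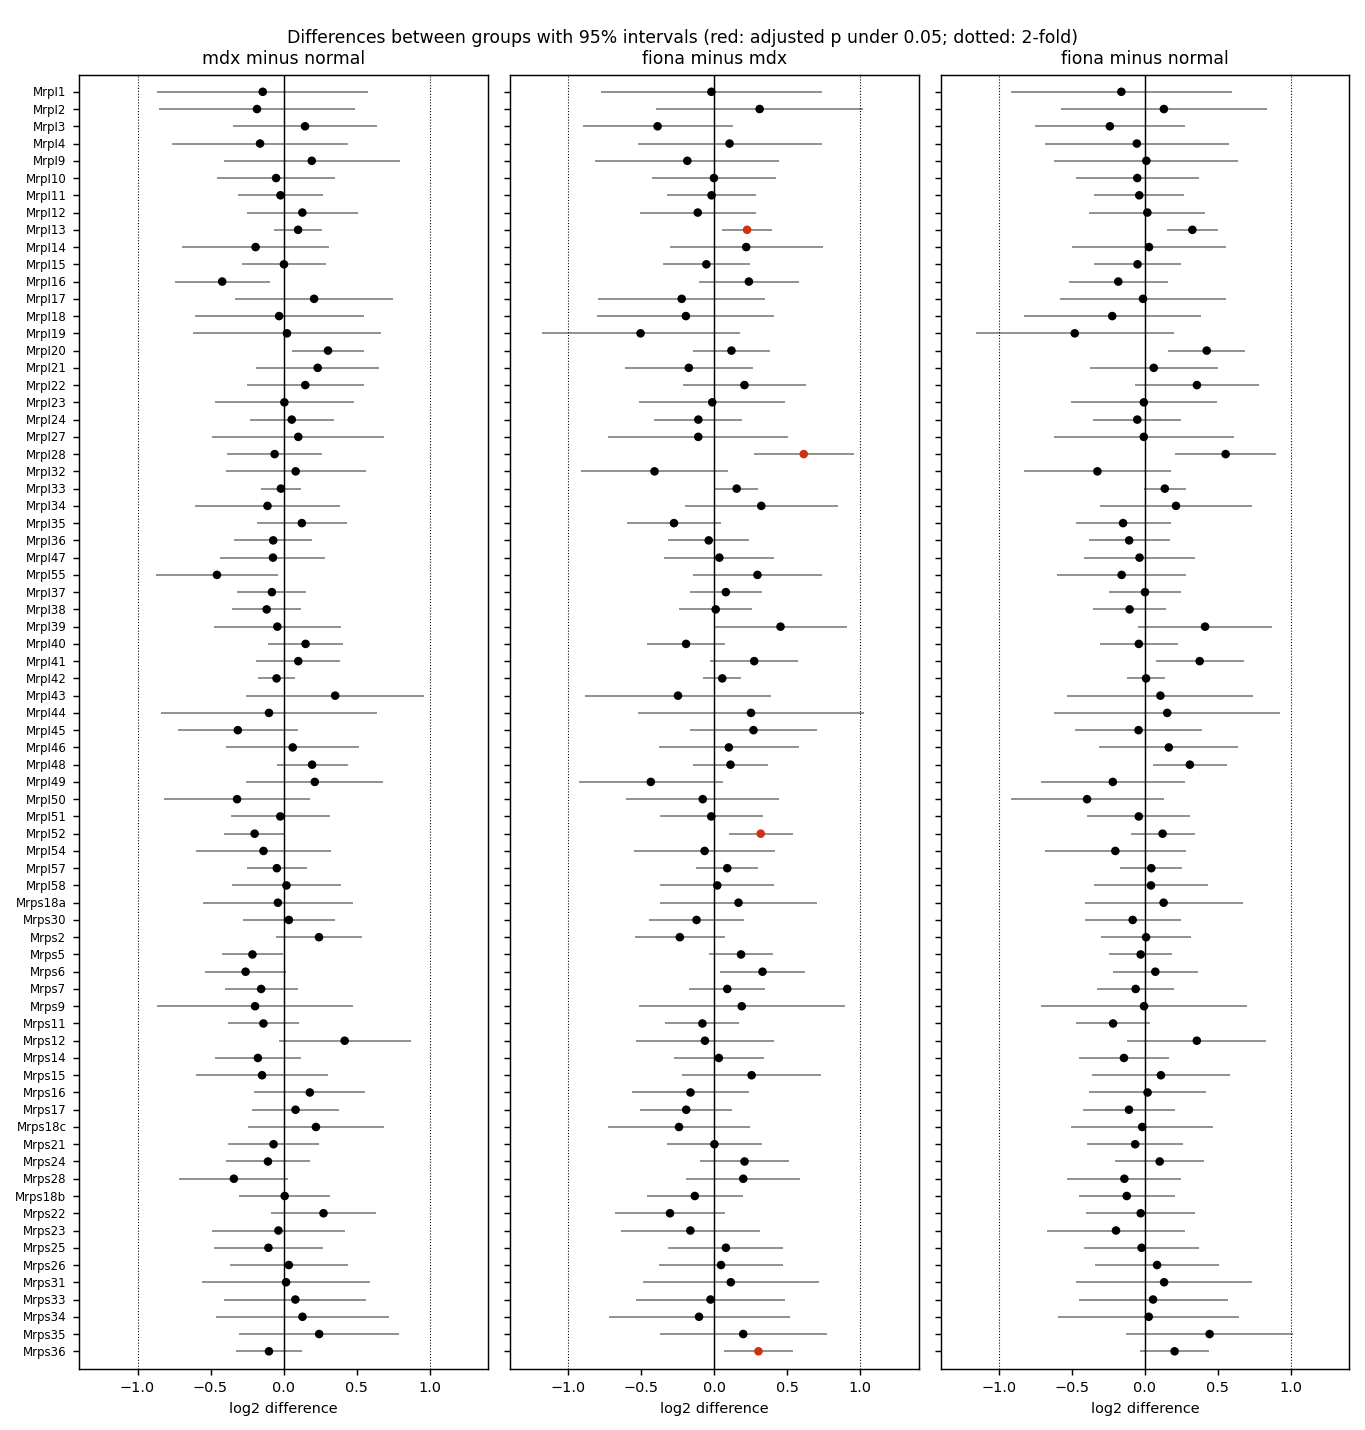
Points are log2 differences of the 74 members with 95% intervals from limma, in the 3 comparisons, and dotted lines mark a 2-fold change. The points scatter on both sides of 0, all intervals of the mdx to normal comparison lie inside the dotted lines, and the 4 red points (adjusted p under 0.05) all belong to the fiona to mdx comparison.

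In fiona muscle, few of these transcripts were called different from mdx muscle. The question here is what the utrophin transgene changes on the dystrophic background. Of the 74 members 4 (5.41%) were called higher in fiona than in mdx muscle (limma, adjusted p under 0.05), and 0 were called lower. Over all genes, 32.1% were called higher and 6.79% lower, and among the genes at least as bright the shares were 4.52% and 12.8%. The count of higher members was thus near the share of bright genes and below that of all genes. Without adjustment, at p under 0.05, 6 members were higher and 0 lower, against 39.2% and 9.57% of all genes. The arrays of fiona and mdx overlapped for all 74 members, while 30.2% of all genes were higher and 2.4% lower with no overlap. The median difference over the members was 0.02, beside 0.08 over all genes and -0.05 over the genes at least as bright, with 39 members above and 35 below 0. The interval stayed inside a 2-fold change for 71 members, and the widest reached -1.18 for Mrpl19 and 1.03 for Mrpl44, an RNase-like protein of the large subunit linked to cardiomyopathy.

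The 4 members called higher were Mrpl28, Mrpl52, Mrpl13 and Mrps36. Mrpl28 and Mrpl13 are large-subunit proteins with a bacterial counterpart, and Mrpl52 is one of the large-subunit proteins of mitochondria alone. Mrps36 is not counted to a subunit of the ribosome. The classes again had medians near 0, at -0.02 and 0.07 for the large-subunit proteins with and without a bacterial counterpart and 0.03 and -0.03 for the corresponding small-subunit proteins.

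Mrpl28 measured 9.81, 9.36, 10.40, 10.11 and 10.20 on fiona arrays 1 to 5. On mdx arrays its lowest, median and highest levels were 9.19, 9.40 and 9.51, and on normal arrays 9.08, 9.45 and 9.74. All fiona arrays except array 2 lay above both other groups. The difference to mdx was 0.61 ± 0.16 (SE; limma, adjusted p = 0.0138), and it was called whichever array was left out. Within array set 1 it was 0.52 (adjusted p = 0.0837) and within set 2 it was 0.70 (adjusted p = 0.244). This probe set is one of those that Affymetrix marks as sharing probes with other transcripts. The other 2 probe sets of the gene gave 0.12 and 0.09 and were not called, and the mean of the 3 gave 0.27 (limma, adjusted p = 0.132).

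Mrpl52 measured 9.66, 9.45, 10.05, 9.79 and 9.89 on fiona arrays 1 to 5. Its lowest, median and highest levels were 9.27, 9.45 and 9.64 on mdx arrays and 9.42, 9.64 and 9.87 on normal arrays. The fiona arrays lay above the mdx range except array 2, and most lay inside the normal range. The difference to mdx was 0.32 ± 0.10 (SE; limma, adjusted p = 0.0260). It was not called without fiona array 3, fiona array 5 or mdx array 1, with an adjusted p of up to 0.0726. Of its 3 other probe sets, a dim one gave 0.31 (limma, adjusted p = 0.016). Its mean level of 3.27 was just above the bacterial controls, and 46.9% of the genes dimmer than the dimmest member were called higher in this comparison. The other pair, with mean levels between 8.41 and 8.70, gave -0.26 and -0.28 and were not called. The mean of all gave 0.02, so the sign depends on the probe set.

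Mrpl13 measured 9.85, 9.94, 9.81, 10.06 and 9.78 on fiona arrays 1 to 5. Its lowest, median and highest levels were 9.49, 9.63 and 9.98 on mdx arrays and 9.40, 9.58 and 9.67 on normal arrays. Every fiona array was above every normal array, and mdx array 1 reached into the fiona range. The difference to mdx was 0.22 ± 0.08 (SE; limma, adjusted p = 0.0409). It was called in 8 of 17 fits that each left out 1 array, and was lost without fiona array 1, 2, 3 or 4, mdx array 2, 4, 5 or 6 or normal array 4. The other probe sets gave -0.13 and -0.28, so the sign depends on the probe set, and the mean of all 3 gave -0.06.

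Mrps36 measured 9.47, 9.93, 9.45, 9.95 and 9.60 on fiona arrays 1 to 5. Its lowest, median and highest levels were 9.03, 9.40 and 9.68 on mdx arrays and 9.34, 9.48 and 9.55 on normal arrays. Fiona arrays 2 and 4 stood above all arrays of the other groups, and arrays 1, 3 and 5 lay inside the mdx range. The difference to mdx was 0.30 ± 0.11 (SE; limma, adjusted p = 0.0415), from the only probe set of the gene. It was called in 8 of 17 fits that left out 1 array, and was lost without fiona array 2, 4 or 5, mdx array 3, 4, 5 or 6 or normal array 1 or 4.

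The calls also moved with the sex pattern, which was female on 4 of 5 fiona and 2 of 6 mdx arrays. With the pattern as a covariate Mrpl28 (0.67; limma, adjusted p = 0.0160) and Mrpl52 (0.38; adjusted p = 0.0179) were still called. Mrpl13 (0.19; adjusted p = 0.104) and Mrps36 (0.28; adjusted p = 0.0872) were not, and Mrpl19, Mrpl40 and Mrpl43 were called lower instead. With the covariate, 3769 of all 12393 genes were called higher and 984 lower. Fiona array 2 was within the range of normal and mdx arrays on one Utrn probe set. Without this array, Mrpl28 and Mrpl52 were called higher and Mrpl3, Mrpl19 and Mrpl49 lower. Of all 12393 genes, 4369 were then called higher and 973 lower. Among the 27 members with several probe sets above the level of the bacterial controls on average, the signs of these differed in 14, against 10 in the mdx to normal comparison.

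**Figure D3:**
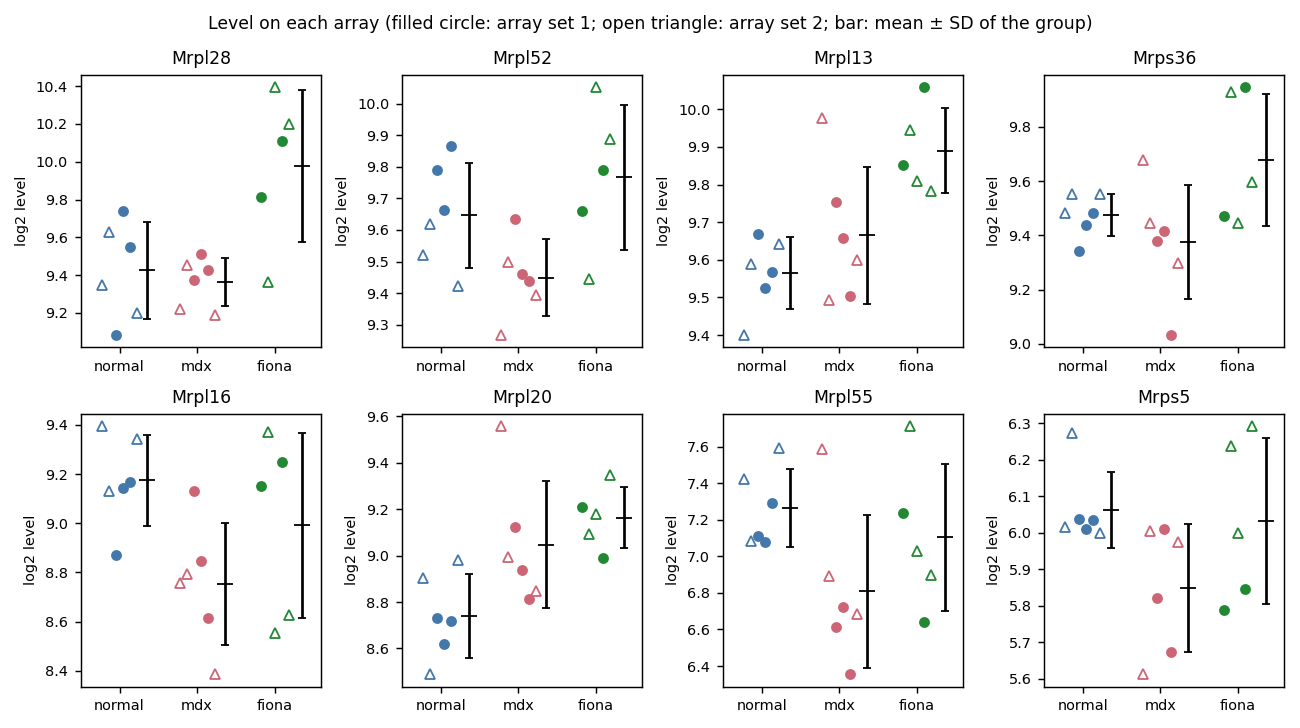
Each panel gives the log2 level of a gene on every array, with the mean and SD of each group, and the symbols mark the array set. In the upper row, the 4 members called higher in fiona than in mdx, at least 1 fiona array lies inside the mdx range for each gene. In the lower row, the 4 members with the smallest p for mdx against normal, the groups also overlap.

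Fiona and normal muscle gave no called member. The comparison asks how far the fiona muscle is from the wild type, and it shares its fiona arrays with the comparison to mdx and its normal arrays with that of mdx to normal. Of the 74 members, 0 were called higher and 0 lower (limma, adjusted p under 0.05), and the share over all genes was 0.0% in both directions. Without adjustment, at p under 0.05, 5 members were higher, against 17.6% of all genes, and 0 lower, against 3.57%. The median difference was -0.01, beside 0.04 over all genes and -0.08 over the genes at least as bright. The arrays did not overlap for 2 members, Mrpl13 and Mrpl20, both higher in fiona, against 0.339% of all genes that were higher and 0.5% that were lower with no overlap. Mrpl20 measured 9.21, 9.09, 9.18, 8.99 and 9.35 on fiona arrays 1 to 5 and at most 8.98 on normal arrays. All fiona arrays thus lay above the normal ones by a narrow margin, and the difference was 0.42 ± 0.12 (SE; limma, adjusted p = 0.210). Mrpl13 differed by 0.32 ± 0.08 (SE), Mrpl28 by 0.55 ± 0.16 and Mrpl41 by 0.37 ± 0.14 (limma), each with the same adjusted p of 0.210. With the mean of all its probe sets Mrpl13 turned to -0.012, so its sign depends on the probe set. Over 11 other settings of the fit, the difference of Mrpl28 ran from 0.29 to 0.64. Mrpl41, a large-subunit protein of mitochondria alone, measured 8.42, 8.82, 8.29, 8.75 and 8.49 on fiona arrays 1 to 5 and had 7.82, 8.18 and 8.48 as lowest, median and highest level on normal arrays, so the groups overlapped. Without fiona array 2, Mrpl13 and Mrpl28 were called higher than normal, where 856 of all 12393 genes were called higher and 118 lower.

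Differences between the array sets were larger than those between the groups for several members. Of the 74, 26 members (35.1%) were higher in set 2 in all 3 groups and 20 (27.0%) were lower in all 3, beside 33.2% and 33.9% of the genes at least as bright. Mrpl2, a core large-subunit protein beside the site of peptide bond formation, was higher in set 2 by 1.00 on normal arrays, by 1.00 on mdx arrays and by 1.09 on fiona arrays. Mrpl4 and Mrpl27 were higher by 0.74 and 0.73 on average over the groups. Mrpl1, of the stalk where spent tRNA leaves, differed by -0.85, -1.18 and -0.90, and Mrpl44 by -0.70, -0.81 and -1.60. In all, 13 members had an average beyond 0.61 in size, the largest difference between groups, among them Mrps9 at -0.77 and Mrps31 at -0.76. Because the sets follow the largest component of the residuals, their differences are a description without a test. A dimmer probe set of Mrpl1 gave an average of 0.19, and of the 27 members with several probe sets above the control level, the signs of these differed in 16. In the fiona group, set 1 holds arrays 1 and 4, which were also the highest on 2 of the Utrn probe sets. Among fiona arrays, the array set and the level on these probe sets thus cannot be told apart. What separates the sets is not given in the labels, and its part in the results was not tested.

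**Figure D4:**
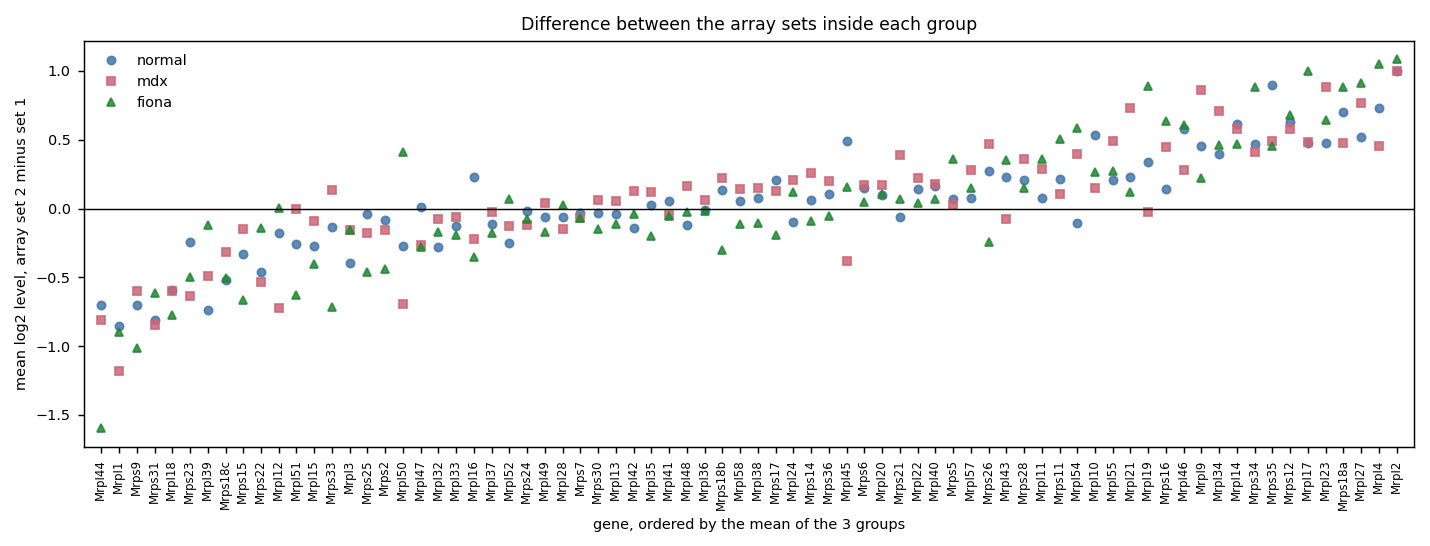
For each member, ordered along the horizontal axis, the points give the mean log2 level of set 2 minus that of set 1 within normal, mdx and fiona arrays. The points of a gene share their sign at both ends of the order, from Mrpl44 and Mrpl1 (below -0.5 in all groups) to Mrpl2 (1.00 to 1.09).

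The members also varied together inside the groups. The residual SD of a member around the group means ranged from 0.102 (Mrpl42) to 0.623 (Mrpl44) with a median of 0.319, beside 0.384 for the genes at least as bright. As a description, the median correlation of residuals over the 2701 pairs of members was 0.34, and 75.3% of pairs were above 0. The same was not computed for other genes of like brightness, so these values do not show a trait particular to the members. The genes outside the members whose residuals were most like the median of the members over the 17 arrays were Cops9 (r = 0.946), Trappc2l (0.935), Polr2f (0.925), Maip1 (0.924) and Sbds (0.924). These values share arrays and scaling between arrays, and carry no test.

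Other genes of mitochondrial translation had few calls. A list of ribosomal proteins with other or older names had 6 measured genes, of which Mrpl57 and Mrpl58 are members and Dap3, Chchd1, Ptcd3 and Gadd45gip1 are not. Of the 6, 0 were called in any comparison, and Gadd45gip1 differed most, by 0.27 in mdx against normal and -0.59 in fiona against mdx. Of 23 translation and assembly factors, 0 were called in mdx against normal and 1 was called higher in fiona than in mdx, the elongation factor Gfm1 (0.33 ± 0.12 SE; limma, adjusted p = 0.0384). Of 11 tRNA charging enzymes of mitochondria, 3 were called higher in fiona than in mdx (Hars2 by 0.38, Ears2 by 0.20 and Pars2 by 0.08), where 32.1% of all genes were, and 0 in mdx against normal. The count was 1 without fiona array 3, fiona array 5 or mdx array 3. Of 16 genes for mitochondrial DNA and RNA, 1 was called, the topoisomerase Top1mt, higher by 0.12 in fiona than in mdx. Of 27 genes for import and folding 0 were called, and the smallest p in both comparisons was that of Pmpca, a subunit of the mitochondrial processing peptidase. Pmpca differed by -0.40 in mdx against normal (limma, adjusted p = 0.111) and by 0.36 in fiona against mdx (adjusted p = 0.0506).

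Of 15 regulators of mitochondrial biogenesis, 6 were called higher and 2 lower in fiona than in mdx, where 32.1% and 6.79% of all genes were, and 0 were called in mdx against normal. The count of 6 became 3 without fiona array 3 or 5 or mdx array 1, 3, 5 or 6. The coactivator Ppargc1b was higher by 1.21 ± 0.41 (SE; limma, adjusted p = 0.0309), and Nfe2l2 (-0.999 ± 0.27) and Pprc1 (-0.44 ± 0.14) were lower. Ppargc1a, the best known of these coactivators, differed by -0.75 ± 0.24 (SE) in mdx against normal (limma, adjusted p = 0.0949). The median of the list was -0.27 for mdx against normal and 0.08 for fiona against mdx.

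The respiratory chain takes up the products of the mitochondrial ribosome, and the cytosolic ribosome makes its proteins. Of 74 nuclear genes of the respiratory chain and the ATP synthase, 1 was called higher and 2 lower in mdx than in normal muscle (1.35% and 2.70%, against 3.22% and 1.44% of all genes), with a median of -0.15. These were Cox6a1 (1.01 ± 0.20 SE), the form of this cytochrome oxidase subunit found outside muscle, and Sdha (-0.57 ± 0.14) and Atp5c1 (-0.29 ± 0.07). Among the genes at least as bright as the dimmest member, 5.49% were called higher and 3.21% lower in mdx than in normal muscle. In fiona against mdx 14 respiratory genes were called higher and 1 lower (18.9% and 1.35%), with a median of 0.19. The shares were 32.1% and 6.79% of all genes, and 4.52% and 12.8% of the genes at least as bright. Those called included Cox6a2 (0.62 ± 0.22), the muscle form, Sdha (0.50 ± 0.15) and Cox6a1 (-0.78 ± 0.21). Many of the 43 cytosolic ribosomal proteins measured have near-identical copies that can share probes. Of the 43, 10 (23.3%) were called higher and 0 lower in mdx than in normal muscle, with a median of 0.37. Called higher were 3.22% of all genes and 5.49% of the genes at least as bright. In fiona against mdx 1 was called higher and 22 (51.2%) lower, with a median of -0.35. Called lower were 6.79% of all genes and 12.8% of the genes at least as bright. The largest decreases among called genes were those of Rpl41, Rps19 and Rpl11 (-0.83, -0.70 and -0.68). Rpl41, Rpl10a and Rpl13a had been higher in mdx by 0.89, 0.59 and 0.49. The counts depended on the setting, and over 28 other settings the 14 respiratory genes became 1 to 24, the 10 ribosomal ones 0 to 21 and the 22 ribosomal ones 0 to 26, with 0 ribosomal genes in array set 2 alone. Among single arrays, leaving out mdx 5 gave 9 respiratory genes, mdx 1 or normal 1 gave 6 or 5 ribosomal genes in place of 10, and fiona 5 gave 14 in place of 22. The medians of both lists kept their sign in all of these settings in the mdx to normal and fiona to mdx comparisons, the settings that rescale the arrays included. In fiona against normal 0 genes of all these lists were called. Whether these lists differ from the members was not tested.

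**Figure D5:**
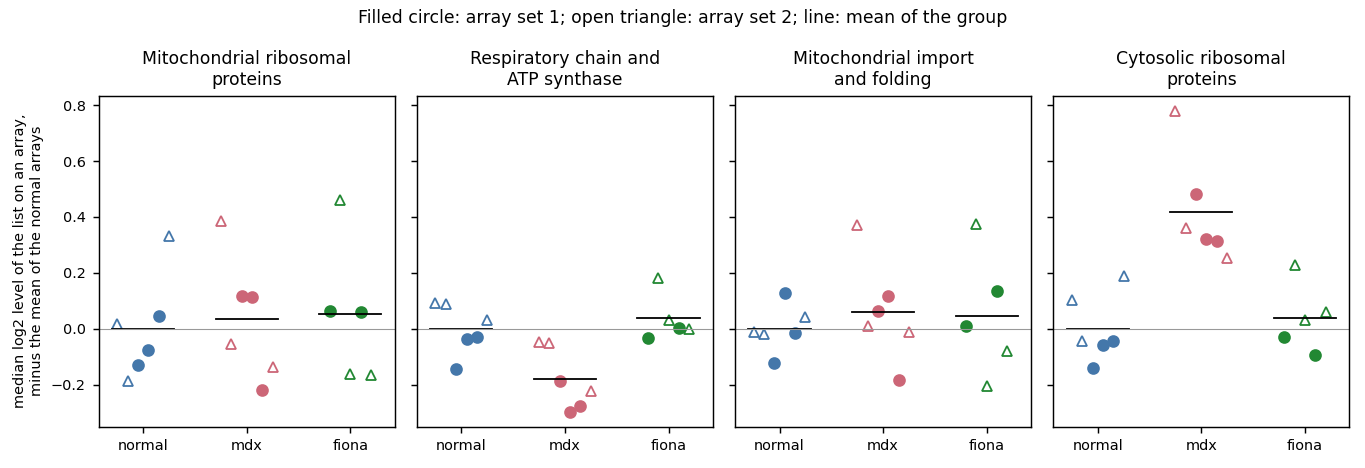
The vertical axis gives the median log2 level of a list on each array minus the mean of the normal arrays, for the members and 3 related lists, with a line at the group mean. The 6 mdx arrays are all above the normal mean for cytosolic ribosomal proteins and all below it for the respiratory chain, while for the mitochondrial ribosome each group lies on both sides of it.

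Markers of other cells changed in the same comparisons. Of 14 macrophage markers 13 were called higher in mdx than in normal muscle and 14 lower in fiona than in mdx (limma, adjusted p under 0.05), and the log2 of their summed level was 8.70 to 9.95 on normal, 12.90 to 13.89 on mdx and 9.47 to 10.64 on fiona arrays. Of 8 markers of regenerating fibres 7 were higher in mdx and 8 lower in fiona, with summed levels of 7.77 to 8.37, 10.15 to 13.49 and 8.24 to 8.76. Of 8 fibroblast markers 3 were higher in mdx and 7 lower in fiona, with summed levels of 13.05 to 14.04, 14.04 to 15.05 and 11.76 to 13.75. Of 7 endothelial markers 0 were called. Of 8 slow and oxidative fibre markers 1 was higher and 2 were lower in mdx, and 2 were higher and 4 lower in fiona than in mdx. Of 12 fast-fibre markers 1 was lower in mdx and 2 were higher in fiona. Over all genes, 3.22% were called higher and 1.44% lower in mdx than in normal muscle. In fiona against mdx, 32.1% were called higher and 6.79% lower. The shares of slow (25.0%) and fast (16.7%) fibre markers called higher in fiona were below that of all genes. The part of these cells in the levels of the members was not tested.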

How the data were processed

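RNA of 17 muscle samples was hybridised to 1 Affymetrix array each, from 8 µg of total RNA per the labels. The deposited table holds log2 values per probe set. As tools, RMA and GCRMA are named by the submitters' processing notes, without a statement of which gave the deposited values. Of 22690 probe sets, 64 controls, 691 with several gene symbols and 1555 with none were left out, and 20380 were kept, covering 12393 genes. Each gene was represented by its brightest probe set over all arrays. Differences were tested with limma 3.58.1 (R 4.3.3, lmFit and eBayes) in 1 fit of 3 group means, with Benjamini-Hochberg adjustment over all genes, called at an adjusted p under 0.05. Values after ± are SD for levels and SE for differences. Single probe sets of a gene were tested in a fit over all probe sets. The fit was tested on simulated data. P values measure the spread between arrays labelled as biological replicates, whose number limits the precision.

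The members, the gene lists and the tests were chosen with earlier results of these data known. Values on every array are given for called members, or for the 4 members with the smallest p where fewer were called; Mrpl2, Mrpl1, Mrpl4, Mrpl27, Mrps9, Mrps31 and the members called in other settings were named after their values were seen. The comparison with genes at least as bright as the dimmest member and the count of probe sets above the control level were added after seeing the data. The labels do not say that a replicate number marks anything shared, and the correlations of same-numbered arrays did not reach 0.1 for every pair in any comparison, so the numbers were not used as pairs. For mdx and normal only the arrays numbered 1 stayed below (0.09), and the other pairs ran from 0.34 to 0.61. Same-numbered mdx and normal arrays also fell in the same array set. Array sets are the sign of the largest component of residuals over other genes, without a label behind them. Plots were made in matplotlib 3.10.9 under Python 3.11.15.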

Additional observations from a re-analysis of the deposited data

Results flagged for a closer look

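Of 30 series of values of 6 or 5 arrays checked for a single distant array, 1 stood out, where chance gives about 1 in 20. Mrps5 on normal array 2 was at 6.27, and the next of the 6 normal arrays was at 6.04, a gap that makes up 0.860 of the range of the group.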

How the results depend on the processing

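The number of members called higher in fiona than in mdx was 4, and it was 8 with quantile normalization, 7 with the array set as a block, 3 in array set 1 alone and with the mean of all probe sets, 2 with the filter on dim genes, with only the 2 groups compared and with the sex pattern as a covariate, 1 with arrays centred on their median and 1 among genes at least as bright as the dimmest member, and 0 in array set 2 alone. With the replicate block it was also 0, and 185 of all 12393 genes were called higher. Of all genes, 1470 were called higher with quantile normalization, 4223 with the array set as a block and 3498 in array set 1 alone. The mean of probe sets gave 4249, only the 2 groups compared 3006, the sex pattern 3769 and centred arrays 1417. Array set 2 alone gave 13. The filter on dim genes gave 1392 of 9192 genes, and the genes at least as bright gave 77 of 4336. The correlations of same-numbered arrays ran from -0.42 to 0.30 for fiona and mdx, -0.49 to 0.48 for fiona and normal and 0.09 to 0.61 for mdx and normal. Of the arrays, 0 of 5 fiona arrays correlated best with their own number in mdx, and 1 of 6 mdx arrays in normal. Leaving out 1 array gave 2 to 5 members called higher. Called lower were 3 members in array set 1 alone, 3 with the sex pattern and 1 with the mean of probe sets, and 0 to 3 with 1 array left out. Of all genes, 797 were called lower in array set 1 alone, 984 with the sex pattern and 841 with the mean of probe sets. For mdx against normal, 1 member was called higher and 1 lower in array set 1 alone and with the array set as a block, and 1 lower with quantile normalization. For fiona against normal 0 to 2 were called higher with 1 array left out. With the mean of probe sets Mrpl13 turned to -0.064 against mdx and -0.012 against normal. The cause was not tested, except that fewer genes or arrays enter some settings.

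The median over the members stayed between -0.08 and 0.04 for mdx against normal, -0.07 and 0.17 for fiona against mdx and -0.13 and 0.10 for fiona against normal in all 28 other settings. Over all genes, calls in fiona against mdx were 3977 higher and 841 lower, but 1417 and 753 with centred arrays, 1470 and 597 with quantile normalization and 185 and 324 with the replicate block. For mdx against normal they were 399 and 179, and 516 and 1501 with centred arrays and 434 and 302 with quantile normalization. Centring moved the median of all genes from 0.04 to -0.06 in fiona against normal.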
